A study of Mus musculus with 8 samples.

Results

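Imprinted genes that lie outside the *Dlk1*-*Dio3* locus of chromosome 12 were followed across 8 RNA-Seq libraries of mouse embryonic stem cells (mESCs), the pluripotent cells derived from the early embryo. The 40 genes form a fixed list of imprinted genes. Its rule uses no measured value, but the list was chosen with earlier results of these data known. All 40 had a row among the 43309 genes of the count table. Of these, 36 reached 10 counts in at least 1 library and were tested together with the other genes that did so, 16816 in all, and 30 reached 10 counts in every library. They belong to 17 imprinted clusters, of which 7 were represented by 1 gene. By background knowledge, 20 of the 40 are listed under the paternal chromosome and 18 under the maternal one. Several of the 18, such as *Ube3a*, *Copg2* and *Ppp1r9a*, are maternal in some tissues only, and the listing does not say which allele these cells used. The allele used by *Grb10* and *Gnas* depends on the tissue or transcript.

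An imprinted gene is transcribed mainly from the chromosome of 1 parent. In most clusters this is set by a differentially methylated region, a CpG-rich element whose DNA methylation is laid down in the egg or sperm and is then kept through the cell divisions of the embryo. Several clusters also hold a long non-coding RNA that keeps neighbouring genes silent on the same chromosome, and many imprinted genes act on growth, placenta or brain. The counts used here do not separate the alleles, so every value is the sum over both.

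The libraries compared a *Zbtb24* knockout genotype (1lox/1lox, called KO) with a *Zbtb24* wild-type genotype (2lox/+, called WT) in mESCs of strain J1 (129SV). *Zbtb24* encodes a zinc finger protein that is needed for normal DNA methylation at repeats and for expression of *Cdca7*. All cells were grown in serum-containing medium on gelatin without feeder cells. The SMARTer Ultra Low kit, which copies polyadenylated RNA of lysed cells into cDNA and amplifies it, was applied to 1000 cells (about 10 ng of RNA, 10 cycles of PCR) or 100 cells (about 1 ng of RNA, 18 cycles of PCR). Cell number and PCR cycles therefore cannot be told apart. Each of the 4 groups held 2 libraries. The labels do not say which clone of a genotype gave which library, so every p-value measures the spread between the labelled libraries.

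Total counts ran from 9666985 to 16686525 per library. Levels are given as cpm, counts relative to the library total after scaling by trimmed means (TMM), and each group's n is 2 libraries. Log2 ratios are given ± a standard error derived from the edgeR test. It is the size of the log2 ratio divided by the square root of the F statistic. The targeted gene went against the genotype labels, because *Zbtb24* was higher in the libraries labelled KO at 1000 cells (40.6 and 36.95 cpm against 14.3 and 16.6 cpm) and at 100 cells (39.2 and 37.1 cpm against 19.5 and 20.6 cpm). Counts per gene do not resolve the deleted segment. *Cdca7* was lower in every library labelled KO, with 165.3 and 161.8 cpm against 47.2 and 48.1 cpm at 1000 cells and 164.3 and 169.5 against 59.03 and 64.4 cpm at 100 cells. KO and WT below mean the libraries labelled so. All 8 pluripotency markers were above 3 counts in every group, and their summed level, made largely of *Tdgf1*, lay between 3229 and 4066 cpm. Single markers differed between genotypes. At 1000 cells 4 were higher and 2 lower in KO (20.9% and 20.6% of all genes). At 100 cells 4 were higher and 1 lower (17.6% and 16.6%). *Klf4* (log2 ratios 1.59 ± 0.072 and 1.11 ± 0.14) and *Nanog* (1.13 ± 0.057 and 0.58 ± 0.10) were higher in KO at both, and the part of these markers in the values of the imprinted genes was not tested. The 2 libraries labelled KO at 100 cells stood apart from the other 6 in part of the neural markers. The oligodendrocyte gene *Mbp* was at 104.5 and 102.1 cpm in them and between 1.17 and 2.62 cpm in the others, and the synaptic gene *Snap25* was at 82.7 and 76.7 cpm against 1.41 to 2.98 cpm. Against WT at 100 cells, 9 of 9 tested myelin and astrocyte markers and 7 of 10 neuron markers were higher (17.6% of all genes). The neuron marker *Stmn2* was lower there (log2 ratio -0.47 ± 0.11). A few cells of another type, a low level in every cell and RNA that entered from another sample cannot be told apart in these counts, and this holds for every value in the KO libraries of 100 cells. Values at 100 cells are therefore given beside those at 1000 cells, which do not rest on these libraries.

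Per kilobase of exon, *Cd81* (105.8 FPKM over the 8 libraries) and *Snrpn* (104.8 FPKM) had the highest levels among the 40 genes, followed by *Phlda2* (67.8), *Mcts2* (47.7), *Mest* (42.9) and *Impact* (28.4 FPKM). The order of *Cd81*, a surface protein, and *Snrpn*, a splicing protein, was not the same in every group, since they stood at 74.6 and 118 FPKM in WT at 1000 cells and at 144.8 and 93.95 FPKM in KO. At the other end, 4 genes did not reach 10 counts in any library. *Kcnk9*, a potassium channel, had 1 count in 1 library. *Kcnq1*, another potassium channel, had at most 4 counts, and *Airn*, the non-coding RNA that overlaps *Igf2r*, had at most 9. *Asb4*, an ankyrin repeat protein, held 8 and 8 counts in the WT libraries of 100 cells, 0 and 0 in the KO libraries of 100 cells, and 3 or 4 in each library of 1000 cells.

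The comparison of genotypes asked which imprinted genes differed between libraries labelled KO and WT. At 1000 cells, 21 of the 36 tested genes were past the threshold (edgeR quasi-likelihood test, Benjamini-Hochberg adjusted p of at most 0.05 over all tested genes), 9 higher and 12 lower in KO. Over all tested genes 41.5% were called, 20.9% higher and 20.6% lower (with library size alone 39.29% of all calls were higher, against 50.35% with TMM), and no test of the list against other genes was made. At 100 cells, 15 were called, 6 higher and 9 lower, against a background of 34.2% (17.6% higher, 16.6% lower). That count fell when either KO library was left out and rose when either WT library was, and so did the count over all tested genes. The median log2 ratio of the 36 genes was -0.18 at 1000 cells and -0.0064 at 100 cells, and that of all tested genes was -0.00089 and -0.0010. Called with the same sign at both cell numbers were 9 genes. Higher in KO were *Copg2* and *Trappc9*, and lower were *H19*, *Kcnq1ot1*, *Cdkn1c*, *Peg3*, *Mest*, *Snrpn* and *Mcts2*, against a background of 7.52% of genes higher and 9.24% lower at both. For *Kcnq1ot1*, *Mest* and *Trappc9* both calls held under every alternative that was run, leaving out each library included.

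**Figure D1:**
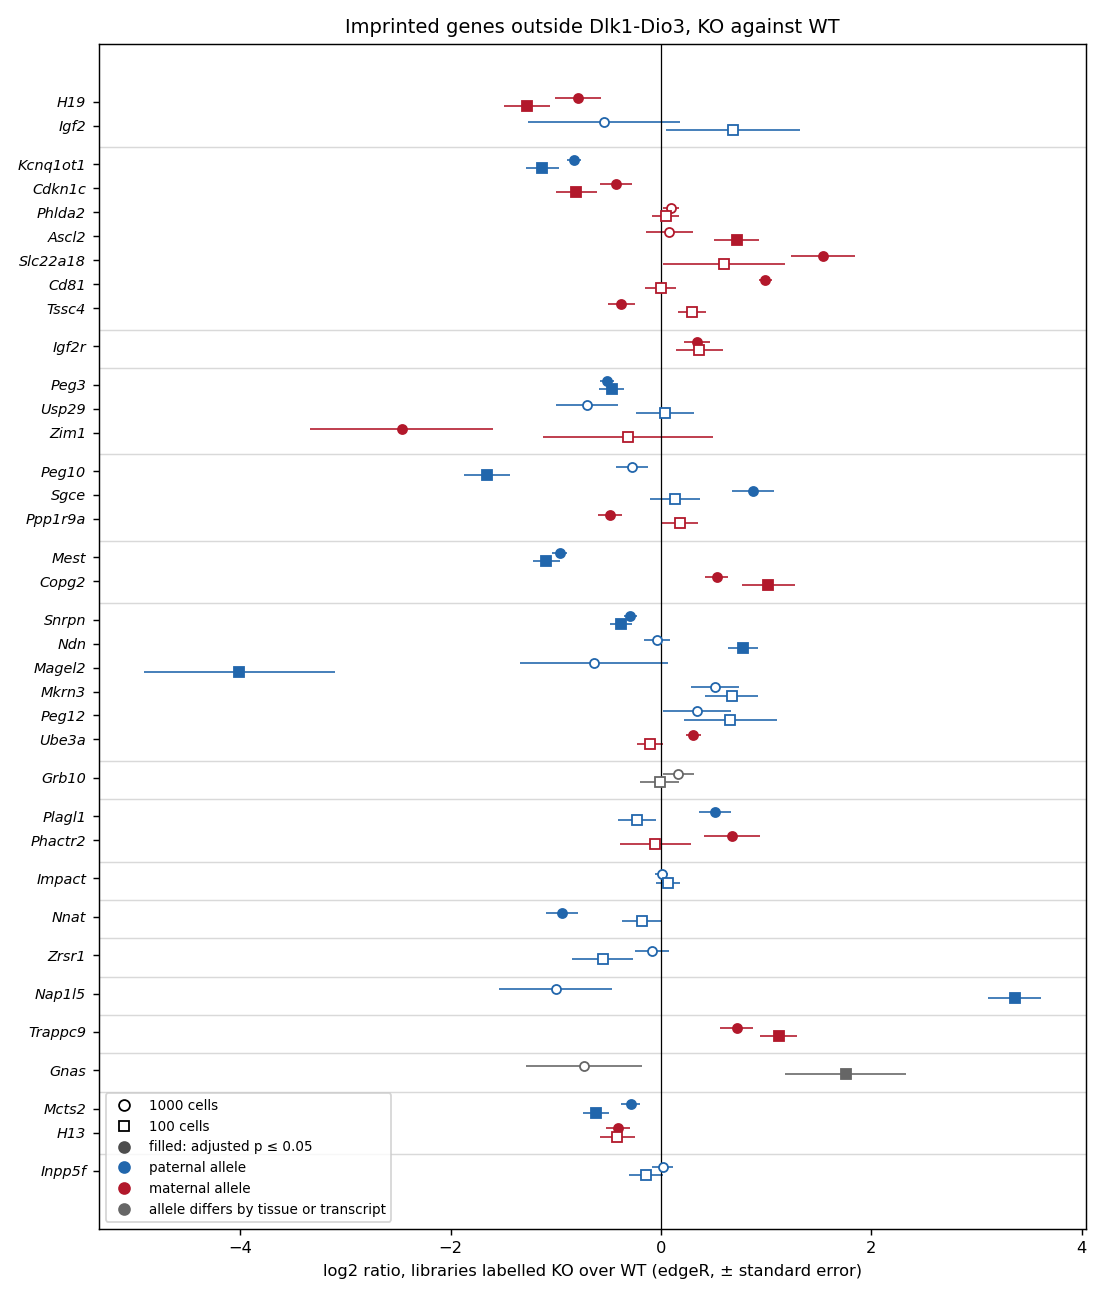
Log2 ratio of libraries labelled KO to those labelled WT for the 36 tested imprinted genes, grouped by cluster, with circles for 1000 cells and squares for 100 cells. Bars are ± 1 standard error derived from the edgeR F statistic, and filled symbols mark an adjusted p of at most 0.05. Blue, red and grey mark genes listed as paternal, maternal and mixed. *H19*, *Kcnq1ot1*, *Cdkn1c*, *Peg3*, *Mest*, *Snrpn* and *Mcts2* have filled symbols left of 0 at both cell numbers, *Copg2* and *Trappc9* right of 0 at both, and the square of *Magel2* at -4.01 rests on 2 counts in KO.

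*Mest* and *Copg2* lie side by side on chromosome 6 and moved in opposite directions. *Mest* (ENSMUSG00000051855.11, chr6:30723547-30748465, + strand, mm10), the paternally expressed gene of a predicted hydrolase, had 222.5 and 202.9 cpm in WT compared with 115.2 and 97.98 cpm in KO at 1000 cells. For 100 cells it had 262.3 and 221 cpm for WT and 110.6 and 120 cpm in KO. All 4 libraries labelled KO were below all 4 labelled WT, and the log2 ratio was -0.96 ± 0.073 at 1000 cells (edgeR adjusted p = 9.83e-12) and -1.09 ± 0.12 at 100 cells (adjusted p = 0.00037).

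*Copg2* (ENSMUSG00000025607.11, chr6:30747554-30896794, - strand), which encodes a subunit of the coatomer that coats transport vesicles and is preferentially maternal in some tissues, showed the opposite order. It had 24.9 and 24.1 cpm in the WT libraries against 37.6 and 31.5 cpm in KO at 1000 cells, and 14.2 and 29.8 cpm against 47.4 and 43.8 cpm at 100 cells. The groups did not overlap at either cell number, and the WT libraries of 100 cells lay far apart. The log2 ratio was 0.53 ± 0.11 (edgeR adjusted p = 0.000164) and 1.02 ± 0.25 (adjusted p = 0.0132). In 1 fit of all 8 libraries the ratio at 1000 cells did not pass, 0.53 (adjusted p = 0.0657), and at 100 cells it was 0.62 without WT replicate 1 and 1.65 without WT replicate 2, both past the threshold. Its exons overlap those of *Mest* on the opposite strand over 17.8% of their length (23.1% of that of *Mest*), and counting ignored the strand, so reads of the shared stretch could not be assigned to either gene. Among 10 other genes within 1 Mb of this pair with a mean of at least 10 cpm, 4 were higher and 1 lower at 1000 cells and likewise at 100 cells, with median log2 ratios of 0.098 and 0.20.

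The promoters of both genes, and of *Mcts2* described below, hold TGCCGC, the hexamer that the zinc finger protein ZFP57 binds in its methylated form at imprinted regions. They are printed because these are the 3 genes called at both cell numbers whose upstream sequence holds the hexamer. The 250 bases before the RefSeq start are given 5′ to 3′ on the strand of the gene (RefSeq on GRCm38.p6), in lower case with the hexamer or its reverse complement GCGGCA in capitals.

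*Mest*, chr6:30737800-30738049, + strand: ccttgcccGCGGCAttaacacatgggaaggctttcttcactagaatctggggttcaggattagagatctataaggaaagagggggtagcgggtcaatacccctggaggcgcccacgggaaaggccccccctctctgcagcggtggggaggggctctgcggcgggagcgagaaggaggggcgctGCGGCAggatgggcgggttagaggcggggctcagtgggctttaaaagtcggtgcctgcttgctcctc

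*Copg2*, chr6:30896795-30897044, - strand: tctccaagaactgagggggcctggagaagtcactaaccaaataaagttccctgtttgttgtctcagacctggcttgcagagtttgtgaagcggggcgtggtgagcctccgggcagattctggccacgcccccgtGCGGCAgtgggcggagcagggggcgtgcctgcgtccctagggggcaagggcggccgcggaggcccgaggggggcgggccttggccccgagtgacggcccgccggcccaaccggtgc

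*Mcts2*, chr2:152686898-152687147, + strand: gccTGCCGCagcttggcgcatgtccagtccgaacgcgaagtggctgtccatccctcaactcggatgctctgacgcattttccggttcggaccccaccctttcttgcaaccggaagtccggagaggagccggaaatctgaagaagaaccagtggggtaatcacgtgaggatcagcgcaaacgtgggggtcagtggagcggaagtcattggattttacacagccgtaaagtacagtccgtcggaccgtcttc

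The *Mest* window held the hexamer 2 times and the other windows 1 time each. Searched on both strands, TGCCGC occurred in 7 of 46 promoters of 32 members with a RefSeq entry (15.2%), which belong to *Mest*, *Copg2*, *Mcts2*, *Nap1l5*, *Zim1* and *Plagl1*, and in 8.68% of all 32851 promoters of the same length. CAGGACCT, a word bound by ZBTB24, occurred in 0 of the 46 and in 1.63% of all promoters. Neither word contains the other. Of the 9 genes called at both cell numbers, 6 had a promoter entry. A match is a description of the letters only.

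*Kcnq1ot1* (ENSMUSG00000101609.1, chr7:143203458-143296549, - strand), the paternally expressed non-coding RNA that silences its neighbours in cis, was lower in KO. It had 309 and 358 cpm in WT compared with 176.5 and 189.4 cpm in KO at 1000 cells, and 288.5 and 207.5 against 115.4 and 114.9 cpm at 100 cells. Every KO library was below every WT library. Its log2 ratio was -0.83 ± 0.069 (edgeR adjusted p = 7.54e-11) at 1000 cells and -1.13 ± 0.16 (adjusted p = 0.000929) at 100 cells. Within KO it was also lower at 100 than at 1000 cells (log2 ratio -0.67 ± 0.059, adjusted p = 1.70e-11), while within WT that ratio was -0.43 ± 0.15 (adjusted p = 0.238).

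The genes of the same cluster that are listed under the maternal allele did not move together. *Cdkn1c* (ENSMUSG00000037664.8, chr7:143458339-143461050, - strand), an inhibitor of cyclin-dependent kinases and of growth, was lower in KO at both cell numbers. Its levels were 12.6 and 16.1 cpm for WT and 10.7 and 9.90 cpm in KO at 1000 cells, and 14.8 and 20.6 against 9.52 and 11.04 cpm at 100 cells. The groups did not overlap, and the log2 ratio was -0.43 ± 0.15 (edgeR adjusted p = 0.0221) and -0.81 ± 0.20 (adjusted p = 0.0121). Both calls were lost when 1 library was left out. At 1000 cells the ratio was -0.25 (adjusted p = 0.28) without WT replicate 2 and -0.39 (adjusted p = 0.107) without KO replicate 2, and at 100 cells it was -0.70 (adjusted p = 0.16) without KO replicate 1 and -0.92 (adjusted p = 0.0628) without KO replicate 2. A gene annotated on the opposite strand covers 30.7% of its exonic length, but that gene has no row in the count table.

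*Cd81* (ENSMUSG00000037706.12, chr7:143052739-143067934, + strand), a tetraspanin of the cell surface, had 223.9 and 205.8 cpm in the WT libraries against 415.4 and 418.3 cpm in KO at 1000 cells. It was higher there with a log2 ratio of 0.99 ± 0.061 (edgeR adjusted p = 1.21e-13). In 100 cells it had 333.5 and 248.6 cpm in WT compared with 302.8 and 288.3 cpm in KO, with KO inside the WT range and a log2 ratio of -0.00095 ± 0.15 (adjusted p = 0.998). That value took the sign of the WT library kept, since it was 0.25 (adjusted p = 0.000216) without WT replicate 1 and -0.20 (adjusted p = 0.00209) without WT replicate 2. The difference of the ratios between cell numbers, tested as an interaction, was -0.95 ± 0.17 (adjusted p = 0.00287).

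*Slc22a18*, a membrane transporter, was higher in KO at 1000 cells (1.29 and 1.41 against 3.47 and 4.14 cpm, log2 ratio 1.54 ± 0.30, edgeR adjusted p = 0.000121). Its WT libraries of 100 cells held 4 and 31 counts, and its KO libraries 30 and 30. Without WT replicate 2 the log2 ratio at 100 cells was 2.44 (adjusted p = 0.000753), against 0.60 ± 0.58 with it (adjusted p = 0.451). *Ascl2*, a transcription factor of the trophoblast, was called only at 100 cells, where it had 4.84 and 4.98 cpm for WT and 8.34 and 8.11 cpm in KO (log2 ratio 0.72 ± 0.21, adjusted p = 0.0277, at 1000 cells 0.079 ± 0.22). That call was lost without KO replicate 1 (0.70, adjusted p = 0.277) or KO replicate 2 (0.74, adjusted p = 0.242). The interaction of *Ascl2* did not pass (0.69 ± 0.29, adjusted p = 0.116). *Phlda2*, which limits placental growth, had log2 ratios of 0.095 ± 0.076 and 0.043 ± 0.13, neither past the threshold.

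*Tssc4*, a factor in splicing complex assembly, had 23.1 and 21.1 cpm in the WT libraries against 18.9 and 14.5 cpm in KO at 1000 cells, a log2 ratio of -0.38 ± 0.13 (edgeR adjusted p = 0.0175). At the lower cell number it had 24.8 and 25.99 against 29.9 and 33.3 cpm, a ratio of 0.29 ± 0.13 (adjusted p = 0.118). KO was thus below WT at 1000 cells and above it at 100 cells without overlap, and without WT replicate 1 or 2 the ratio at 100 cells passed (0.28 and 0.32), and the interaction was 0.71 ± 0.19 (adjusted p = 0.0236). The call at 1000 cells was lost without WT replicate 1 (-0.31, adjusted p = 0.119) or KO replicate 2 (-0.20, adjusted p = 0.341). The interaction was 0.54 (adjusted p = 0.132) without the latter and was also lost without either WT library of 1000 cells or either KO library of 100 cells. Its exons share 11.9% of their length with *Trpm5*. Among the 9 other genes within 1 Mb of the cluster at 10 cpm or more, 3 were higher and 3 lower at 1000 cells, and 2 higher and 0 lower at 100 cells.

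*H19* (ENSMUSG00000000031.11, chr7:142575529-142578143, - strand), the maternally expressed non-coding RNA at the end of chromosome 7, had 12.4 and 6.78 cpm in WT compared with 6.41 and 4.75 cpm in KO at 1000 cells. For 100 cells it had 10.1 and 9.97 cpm for WT and 3.84 and 4.58 cpm in KO. The KO libraries were below the WT libraries at both cell numbers, by a narrow gap at 1000 cells. On the log2 scale the ratio was -0.79 ± 0.22 (edgeR adjusted p = 0.00466) and -1.27 ± 0.22 (adjusted p = 0.00255). The call at 1000 cells rested on WT replicate 1, without which the ratio was -0.26 (adjusted p = 0.468), and at 100 cells the ratio without KO replicate 1 was -1.15 (adjusted p = 0.051). *Igf2*, the paternally expressed growth factor that shares enhancers with *H19*, had between 1 and 13 counts per library and no call (log2 ratios -0.54 ± 0.72 and 0.69 ± 0.64). Another annotated gene on the same strand covers 62.8% of its exonic length, but has no row in the count table.

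*Peg3* (ENSMUSG00000002265.11, chr7:6703892-6730431, - strand), a paternally expressed zinc finger gene, was lower in KO at both cell numbers. It had 164.8 and 172.1 cpm in the WT libraries against 119.4 and 110.5 cpm in KO at 1000 cells, and 148.4 and 129.3 against 106.7 and 97.1 cpm at 100 cells. The groups did not overlap. The log2 ratio was -0.51 ± 0.068 (edgeR adjusted p = 3.77e-07) and -0.47 ± 0.12 (adjusted p = 0.0152), and the call at 100 cells was lost without KO replicate 1 (-0.54, adjusted p = 0.13) or KO replicate 2 (-0.40, adjusted p = 0.278). *Usp29*, the ubiquitin protease transcribed from the same region in the other direction, had 3.11 and 3.06 against 1.70 and 1.97 cpm at 1000 cells (log2 ratio -0.71 ± 0.29, adjusted p = 0.0543) and a ratio of 0.041 ± 0.27 at 100 cells. *Zim1*, a maternally expressed neighbour, was called at 1000 cells on 21 and 5 counts in WT and 4 and 0 in KO (log2 ratio -2.47 ± 0.87, adjusted p = 0.0235). Without WT replicate 1 that ratio was -1.42 (adjusted p = 0.387), without KO replicate 2 it was -1.43 (adjusted p = 0.22), and at 100 cells it was -0.31 ± 0.81.

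*Snrpn* (ENSMUSG00000102252.1, chr7:59982495-60140219, - strand), which encodes a protein of the spliceosome and marks the Prader-Willi cluster, was lower in KO by a small and steady amount. It had 255.7 and 253.9 cpm in WT compared with 198.7 and 207 cpm in KO at 1000 cells, and 235.1 and 268.1 against 193.4 and 198.5 cpm at 100 cells. No KO library reached a WT library. Its log2 ratio was -0.29 ± 0.062 (edgeR adjusted p = 0.000308) and -0.38 ± 0.10 (adjusted p = 0.0199). The call at 100 cells was lost without KO replicate 1 (-0.36, adjusted p = 0.351) or KO replicate 2 (-0.40, adjusted p = 0.291). Its exons share 27.3% of their length with another annotated gene and 10% with *Snurf*, encoded on the same transcript. Of 2 other genes within 1 Mb of the cluster at 10 cpm or more, 0 were higher and 2 lower at 1000 cells. At 100 cells 0 were higher and 1 lower, and the median log2 ratios were -0.36 and -0.61.

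None of the other paternally expressed genes of that cluster was called lower at both cell numbers. *Ndn*, a growth suppressor of the MAGE family that is abundant in neurons, had 17.4 and 17.02 cpm for WT and 17.9 and 14.9 cpm in KO at 1000 cells, with overlap and a log2 ratio of -0.038 ± 0.13. In 100 cells it had 18.5 and 17.4 cpm in the WT libraries against 32.6 and 29.9 cpm in KO, a ratio of 0.78 ± 0.14 (edgeR adjusted p = 0.00324). The KO libraries of 100 cells were above the other 6, and the interaction was 0.86 ± 0.19 (adjusted p = 0.00826). Without KO replicate 1 of 100 cells the ratio at 100 cells was 0.72 (adjusted p = 0.0849) and the interaction 0.79 (adjusted p = 0.0583), and without KO replicate 2 of 1000 cells the interaction was 0.74 (adjusted p = 0.0614).

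*Magel2*, another MAGE gene, went the other way at 100 cells, with 13 and 18 counts in WT and 0 and 2 in KO. The ratio of the summed counts, 2 against 31, was 0.0556 after scaling, with an exact 95% interval from 0.00645 to 0.219 that covers counting error only, and the edgeR adjusted p was 0.00887. Without KO replicate 1 that p was 0.101, and at 1000 cells *Magel2* had 11 and 6 counts in WT and 4 and 6 in KO and no call. *Mkrn3*, a RING finger gene, had log2 ratios of 0.51 ± 0.23 and 0.67 ± 0.25, neither past the threshold (adjusted p = 0.0736 and 0.0628), and *Peg12* had 0.34 ± 0.33 and 0.66 ± 0.45. *Ube3a*, the ubiquitin ligase that is maternally expressed in neurons and uses both alleles elsewhere, was higher in KO at 1000 cells (137.7 and 147.8 against 168.3 and 175.8 cpm, log2 ratio 0.31 ± 0.067, adjusted p = 0.00041) and did not pass at 100 cells (-0.10 ± 0.13, adjusted p = 0.555, without WT replicate 2 -0.25, adjusted p = 0.000941).

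*Mcts2* (ENSMUSG00000042814.7, chr2:152687035-152687946, + strand) is a paternally expressed retrogene inside an intron of *H13*, whose promoter is printed above. It had 45.3 and 47.1 cpm in WT compared with 37.05 and 36.5 cpm in KO at 1000 cells, and 50.96 and 58.4 against 35.4 and 36.9 cpm at 100 cells. All KO libraries were below all WT libraries. On the log2 scale the ratio was -0.29 ± 0.09 (edgeR adjusted p = 0.0102) and -0.62 ± 0.12 (adjusted p = 0.0047). Its near copy *Mcts1* can share reads with it, and reads that fitted both were discarded. The calls were lost without KO replicate 2 at 1000 cells (-0.29, adjusted p = 0.0512) and without KO replicate 1 (-0.59, adjusted p = 0.123) or KO replicate 2 (-0.65, adjusted p = 0.0857) at 100 cells.

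*H13*, the host gene, encodes a signal peptide peptidase and its full-length transcript is maternal. It was lower in KO at 1000 cells (22.5 and 25.5 against 17.6 and 17.5 cpm, log2 ratio -0.41 ± 0.12, edgeR adjusted p = 0.0056), a call lost without WT replicate 2 (-0.32, adjusted p = 0.0678), and had -0.41 ± 0.17 at 100 cells (adjusted p = 0.0813, passing without WT replicate 1 or 2 at -0.29 and -0.52). Of 19 other genes within 1 Mb at 10 cpm or more, 8 were lower and 3 higher at 1000 cells and 9 were lower and 3 higher at 100 cells, with median log2 ratios of -0.18 and -0.44.

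*Trappc9* (ENSMUSG00000047921.11, chr15:72589620-73061204, - strand), a subunit of a vesicle tethering complex that is listed under the maternal allele, was higher in KO at both cell numbers. It had 7.45 and 9.59 cpm for WT and 14.9 and 12.2 cpm in KO at 1000 cells, and 13.5 and 10.3 against 26.4 and 25.8 cpm at 100 cells. KO was above WT at each cell number. The log2 ratio was 0.72 ± 0.16 (edgeR adjusted p = 0.000564) and 1.12 ± 0.18 (adjusted p = 0.00173). Of 5 other genes within 1 Mb at 10 cpm or more, 1 was higher and 2 lower at 1000 cells, and 0 higher and 3 lower at 100 cells.

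**Figure D2:**
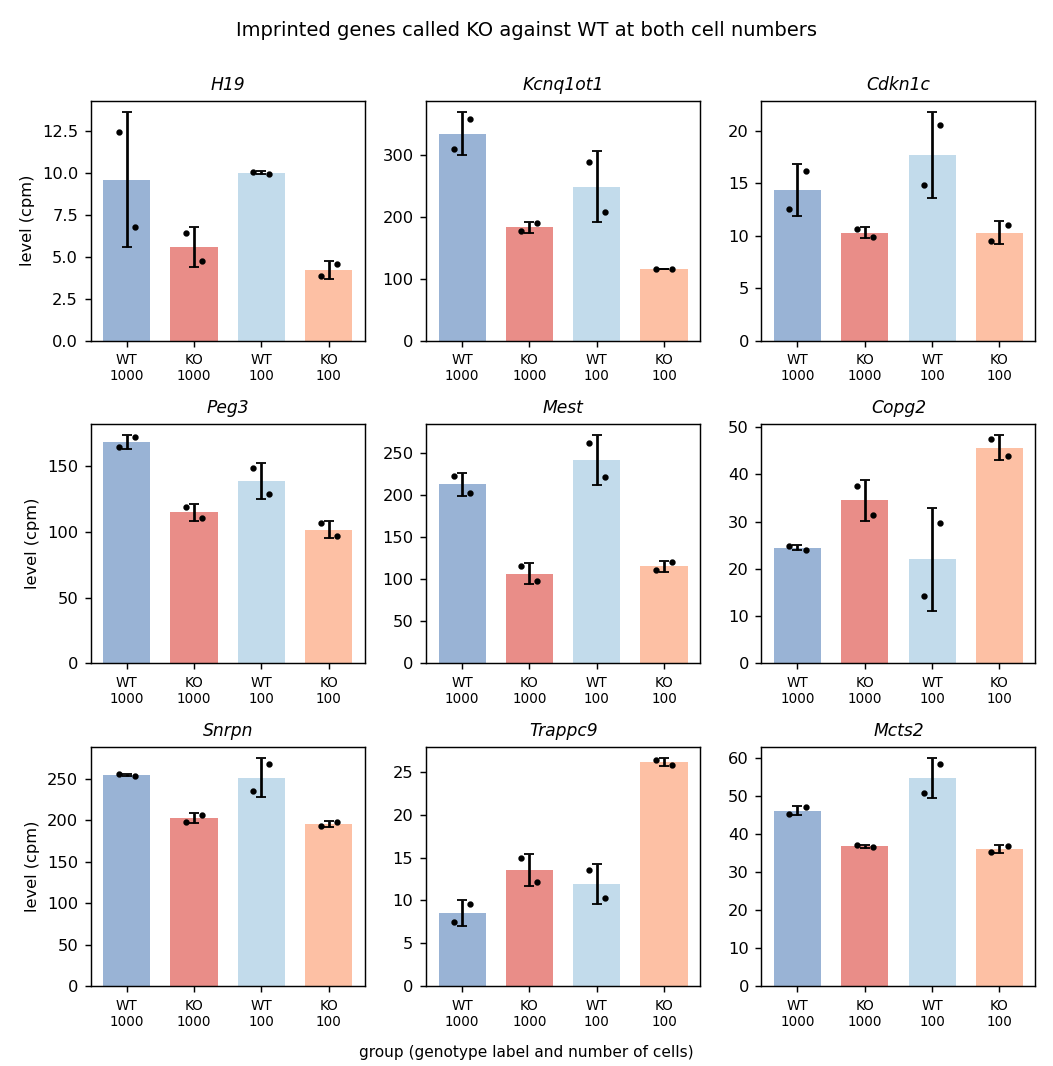
Level in cpm of the 9 imprinted genes called with the same sign at both cell numbers, with bars for the mean of 2 libraries, points for single libraries and error bars for ± 1 SD. In each panel the KO libraries lie on 1 side of the WT libraries at 1000 and at 100 cells, above them for *Copg2* and *Trappc9* and below them for the other 7.

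In the cluster of *Peg10* and *Sgce* on chromosome 6, both paternally expressed, *Peg10* was called at 100 cells and *Sgce* at 1000 cells. *Peg10*, a retrotransposon-derived gene of the placenta, had 12.7 and 13.4 cpm in the WT libraries against 9.03 and 11.8 cpm in KO at 1000 cells (log2 ratio -0.28 ± 0.15, edgeR adjusted p = 0.149). At the lower cell number it had 20.8 and 15.2 cpm in WT compared with 5.68 and 5.86 cpm in KO (-1.66 ± 0.22, adjusted p = 0.000703). KO was lower at both, and the interaction was -1.33 ± 0.27 (adjusted p = 0.00635, without KO replicate 2 of 1000 cells -1.11, adjusted p = 0.0547). *Sgce*, a sarcoglycan, was higher in KO at 1000 cells (5.17 and 3.97 against 8.95 and 7.66 cpm, log2 ratio 0.88 ± 0.20, adjusted p = 0.000717) and had 0.13 ± 0.24 at 100 cells (adjusted p = 0.695). Without KO replicate 2 *Peg10* passed at 1000 cells as well (-0.50, adjusted p = 0.0406).

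*Ppp1r9a*, which encodes the neuronal scaffold neurabin and is maternal in some tissues, had 30.9 and 32.97 cpm for WT and 19.8 and 24.3 cpm in KO at 1000 cells, a log2 ratio of -0.49 ± 0.11 (edgeR adjusted p = 0.000778). At 100 cells it had 21.04 and 16.02 against 21.5 and 20.9 cpm (0.18 ± 0.17, adjusted p = 0.445). KO and WT overlapped narrowly at these levels and did not with scaling over the tested genes alone. Without WT replicate 1 that ratio was 0.41 (adjusted p = 0.00446). The WT libraries thus came down to the KO level at 100 cells. The interaction was 0.72 ± 0.21 (adjusted p = 0.0323), a call lost without any 1 of the 4 libraries of 1000 cells or of the KO libraries of 100 cells (values from 0.56 to 0.89, adjusted p from 0.0511 to 0.150).

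At 4 loci with 1 listed gene, *Impact*, *Inpp5f*, *Grb10* and *Zrsr1*, no call was made at either cell number. *Impact*, an inhibitor of GCN2 activation, had 157.6 and 159.7 cpm in the WT libraries against 158.2 and 152.4 cpm in KO at 1000 cells, and 139.3 and 121.4 against 142.3 and 134.4 cpm at 100 cells, with log2 ratios of 0.0061 ± 0.065 and 0.065 ± 0.12. *Inpp5f*, a phosphoinositide phosphatase, had 30.1 and 30.9 cpm in WT compared with 29.8 and 30.2 cpm in KO at 1000 cells, and 32.5 and 24.9 against 25.8 and 26.8 cpm at 100 cells, with ratios of 0.016 ± 0.1 and -0.14 ± 0.16. At 1000 cells the 4 libraries of each lay close together. At 100 cells the outcome turned on the WT libraries, since *Impact* had 0.19 (adjusted p = 0.013) without WT replicate 1 and *Inpp5f* had -0.33 (adjusted p = 0.00715) without WT replicate 2 (edgeR).

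*Grb10*, a growth factor receptor adaptor, had 11.2 and 10.4 cpm for WT and 10.96 and 12.7 cpm in KO at 1000 cells, and 9.98 and 9.58 against 9.37 and 10.3 cpm at 100 cells. *Zrsr1*, a splicing factor retrogene within *Commd1*, had 9.04 and 9.75 against 8.95 and 8.27 cpm at 1000 cells, and 6.52 and 12.7 against 6.05 and 7.36 cpm at 100 cells. The KO libraries of *Zrsr1* lay within or near the range of the WT libraries, and its log2 ratios were -0.085 ± 0.16 and -0.55 ± 0.29. Without WT replicate 1 the ratio at 100 cells was -0.92 (adjusted p = 1.83e-05) by edgeR.

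*Igf2r*, *Plagl1*, *Phactr2* and *Nnat* were called at 1000 cells but not at 100 cells. *Igf2r*, the receptor that clears IGF2, had 15.6 and 15.8 cpm in the WT libraries against 19.1 and 19.7 cpm in KO at 1000 cells, and 18.5 and 11.3 against 20.1 and 18.5 cpm at 100 cells. KO was above WT in both, with log2 ratios of 0.34 ± 0.12 (edgeR adjusted p = 0.023) and 0.36 ± 0.23 (adjusted p = 0.24). The call at 1000 cells was lost without WT replicate 1 (0.33, adjusted p = 0.0962), WT replicate 2 (0.35, adjusted p = 0.0528) or KO replicate 2 (0.32, adjusted p = 0.126), and at 100 cells the gene passed without WT replicate 1 (0.77, adjusted p = 7.04e-06).

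*Plagl1*, a zinc finger gene that regulates other imprinted genes, had 12.5 and 8.84 cpm in WT compared with 16.2 and 13.97 cpm in KO at 1000 cells (log2 ratio 0.51 ± 0.15, edgeR adjusted p = 0.00793), and 11.8 and 14.5 against 12.2 and 10.7 cpm at 100 cells (-0.22 ± 0.18, without WT replicate 1 -0.34, adjusted p = 0.0496). Its call was lost without WT replicate 2 (0.31, adjusted p = 0.143) or KO replicate 1 (0.42, adjusted p = 0.0584). *Phactr2*, its maternally biased neighbour and a phosphatase regulator, had 0.68 ± 0.27 at 1000 cells (adjusted p = 0.0418) and -0.055 ± 0.34 at 100 cells. The former was 0.53 (adjusted p = 0.174) without WT replicate 2 and 0.56 (adjusted p = 0.196) without KO replicate 1.

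*Nnat*, the small membrane protein neuronatin, which is abundant in developing brain, had 15.7 and 16.03 cpm for WT and 9.03 and 7.12 cpm in KO at 1000 cells (log2 ratio -0.94 ± 0.15, edgeR adjusted p = 7.70e-06). In 100 cells it had 18.3 and 13.9 against 14.3 and 14.3 cpm (-0.18 ± 0.19, adjusted p = 0.477). The KO libraries were the lowest at 1000 cells and lay within the WT range at 100 cells, where without WT replicate 2 the ratio was -0.38 (adjusted p = 0.0187). The interaction was 0.81 ± 0.24 (adjusted p = 0.0335), and leaving out any 1 library other than the WT libraries of 100 cells ended that call (values from 0.65 to 0.96, adjusted p from 0.0512 to 0.163). *Blcap*, the gene that hosts *Nnat* in its intron and was looked up after the values were seen, had a log2 ratio of 0.28 ± 0.11 at 1000 cells (adjusted p = 0.0324), in the other direction, and 0.15 ± 0.14 at 100 cells.

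*Nap1l5* and *Gnas* were called, both higher in KO, at 100 cells and not at 1000 cells. *Nap1l5*, a nucleosome assembly protein gene expressed mainly in brain, had 0.939 and 1.65 cpm in the WT libraries against 0.309 and 0.881 cpm in KO at 1000 cells, and 1.58 and 1.23 against 14.3 and 14.8 cpm at 100 cells. Both KO libraries of 100 cells stood far above the other 6. Its log2 ratio was 3.36 ± 0.25 at 100 cells (edgeR adjusted p = 4.56e-05), a fold of 10.3, and -1.0 ± 0.54 at 1000 cells (adjusted p = 0.141, without KO replicate 2 -1.98, adjusted p = 0.0417), and the interaction was 4.39 ± 0.56 (adjusted p = 0.00052). *Herc3*, in whose intron it lies and which was also looked up afterwards, had 6.22 and 5.21 against 11.1 and 9.91 cpm at 100 cells (0.86 ± 0.21, adjusted p = 0.0131) and a log2 ratio of 0.14 ± 0.20 at 1000 cells (adjusted p = 0.611).

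*Gnas*, the locus of the stimulatory G protein alpha subunit, held only 4 to 29 counts per library under its identifier. It had 12 and 18 counts in WT and 9 and 8 in KO at 1000 cells, and 8 and 4 against 20 and 29 at 100 cells. The log2 ratios were -0.73 ± 0.55 and 1.76 ± 0.58 (edgeR adjusted p = 0.305 and 0.041), and the interaction was 2.54 ± 0.81 (adjusted p = 0.0456). Other annotated genes cover parts of its exons (13.1% and 8.83%), and fragments that fitted more than 1 gene were discarded. Leaving out any 1 library other than WT replicate 1 of 100 cells ended the interaction call (values from 1.93 to 3.03, adjusted p from 0.0552 to 0.190). At 100 cells the genotype call was lost without WT replicate 2 (1.17, adjusted p = 0.0642), KO replicate 1 (1.99, adjusted p = 0.133) or KO replicate 2 (1.43, adjusted p = 0.374).

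The interaction term, which tests whether the KO to WT ratio differed between cell numbers, was past the threshold for 8 of the 36 genes against 16.3% of all tested genes. More positive at 100 cells were *Tssc4*, *Ppp1r9a*, *Ndn*, *Nnat*, *Nap1l5* and *Gnas* (6 genes, background 9.28%), and more negative were *Cd81* and *Peg10* (2 genes, background 7.05%). In 2 of the 8, *Cd81* and *Nap1l5*, the call held under every alternative. The count rested on single libraries. It rose when either WT library of 100 cells was left out and fell when any other library was, and so did the count over all tested genes. Genes that were not called with all libraries but passed without a WT library of 100 cells included *Copg2* (1.16), *Sgce* (-0.96), *Ube3a* (-0.52) and *Kcnq1ot1* (-0.49) without replicate 2, and *Trappc9* (0.66), *Plagl1* (-0.81), *Zrsr1* (-0.80), *Mcts2* (-0.37) and *Slc22a18* (-1.59) without replicate 1.

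**Figure D3:**
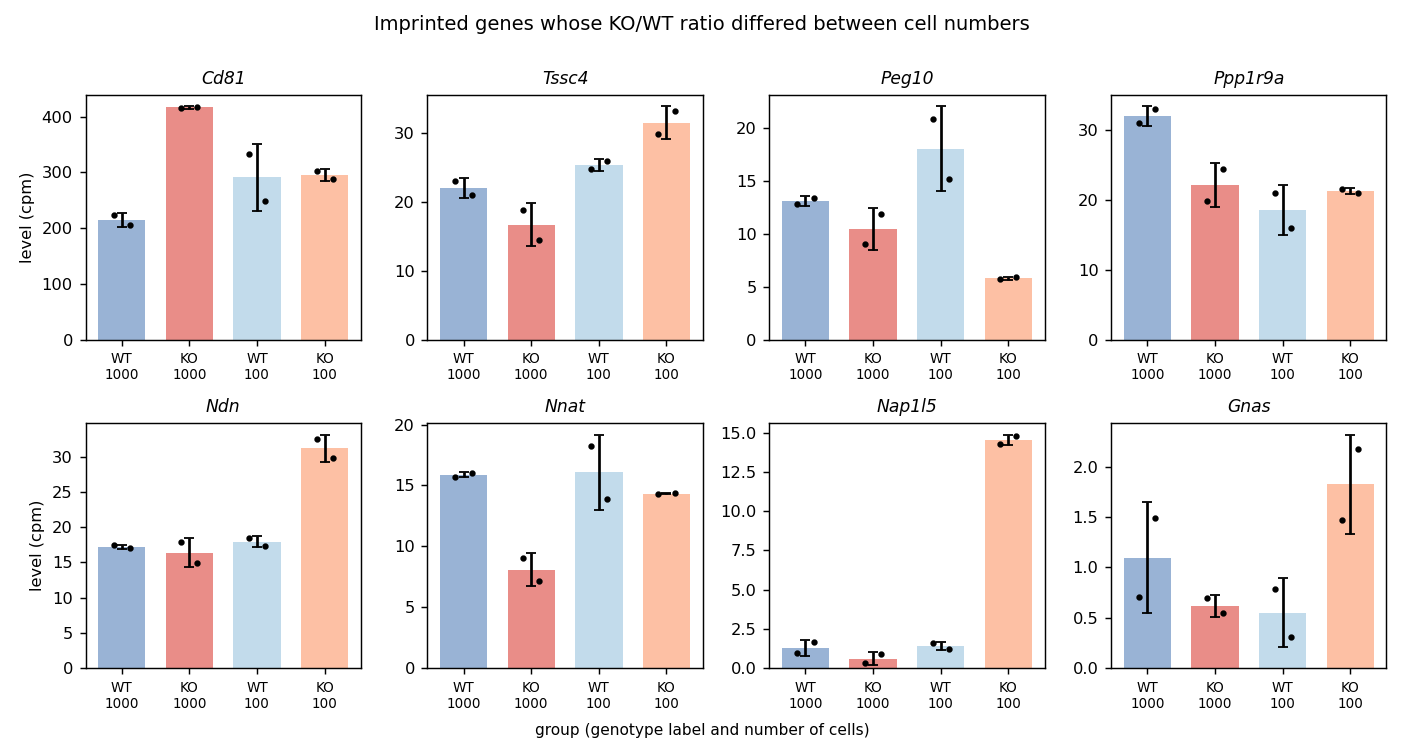
Level in cpm of the 8 imprinted genes whose ratio of KO to WT libraries differed between 1000 and 100 cells, with bars for the mean of 2 libraries, points for single libraries and error bars for ± 1 SD. *Nap1l5* is at 14.3 and 14.8 cpm in KO at 100 cells and below 2 cpm in the other 6 libraries, while *Cd81* is highest in KO at 1000 cells.

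The genes were also grouped by the allele they are listed under. Of 19 tested genes listed as paternally expressed, 2 were higher and 6 lower at 1000 cells (median log2 ratio -0.29), beside 20.9% and 20.6% of all genes. At 100 cells 2 were higher and 7 lower (median -0.18), beside 17.6% and 16.6%. At both cell numbers 0 were higher and 5 lower (*Kcnq1ot1*, *Peg3*, *Mest*, *Snrpn* and *Mcts2*), beside 7.52% and 9.24% of all genes. Of 15 tested genes listed as maternally expressed, 7 were higher and 6 lower at 1000 cells (median 0.095) and 3 were higher and 2 lower at 100 cells (median 0.043). At both cell numbers 2 of these were higher and 2 lower, beside the same shares of all genes. The medians of all tested genes are given above, and no test of a difference between the alleles was made.

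Summed over the 20 genes listed under the paternal allele, the level was 1268 and 1305 cpm in WT compared with 915 and 898.8 cpm in KO at 1000 cells. For 100 cells it was 1256 and 1122 cpm for WT and 838.6 and 834.1 cpm in KO. All KO libraries were below all WT libraries, and *Kcnq1ot1*, *Snrpn*, *Mest*, *Peg3* and *Impact* make up most of these sums. Summed over the 18 genes listed under the maternal allele, *Ube3a* included, the level was 595.3 and 589.1 cpm in the WT libraries against 817.6 and 820.2 cpm in KO at 1000 cells, and 711.3 and 601.5 cpm against 693.4 and 691.3 cpm at 100 cells. KO was above WT at 1000 cells and inside the WT range at 100 cells, as *Cd81*, the largest term, was.

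**Figure D4:**
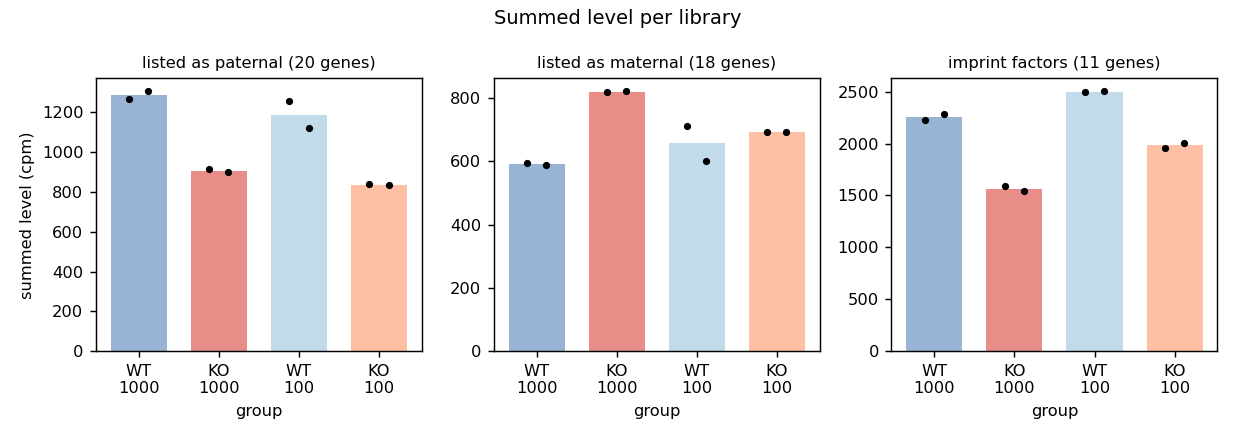
Summed level in cpm per library of the 20 genes listed under the paternal allele, the 18 genes listed under the maternal allele and 11 factors that set, protect or read imprints. Bars are the mean of 2 libraries and points are single libraries. The KO libraries are below the WT libraries for the paternal genes and the 11 factors at both cell numbers, and above them for the maternal genes at 1000 cells only.

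Imprints depend on proteins that set DNA methylation, copy it, protect it or bind 1 of the alleles, and 11 such genes were measured beside the imprinted ones. At 1000 cells 0 were higher and 7 lower in KO (20.9% and 20.6% of all genes), and at 100 cells 1 was higher and 4 lower (17.6% and 16.6%). The same 4, *Dnmt3a*, *Dnmt3b*, *Dnmt3l* and *Dppa3*, were lower at both (9.24% of all genes). *Dnmt3b*, a methyltransferase that sets new methylation, had 185.8 and 205.5 cpm in WT compared with 44.5 and 40.4 cpm in KO at 1000 cells, and 211.8 and 217.3 against 86.5 and 85.7 cpm at 100 cells. Its log2 ratio was -2.17 ± 0.078 (edgeR adjusted p = 6.05e-19) and -1.34 ± 0.10 (adjusted p = 4.78e-05). *Dnmt3l*, the cofactor that makes methylation of imprints in germ cells possible, had -1.41 ± 0.068 and -1.35 ± 0.10, *Dnmt3a* had -1.01 ± 0.069 and -1.05 ± 0.10, and *Dppa3*, which protects imprints after fertilization, had -1.18 ± 0.072 and -1.48 ± 0.14. *Dnmt1*, which copies methylation at replication, was the 1 higher gene at 100 cells (0.36 ± 0.12, adjusted p = 0.0476) and had -0.15 ± 0.072 at 1000 cells. Its partner *Uhrf1* had -0.028 ± 0.068 and -0.083 ± 0.1, and *Trim28*, the corepressor that ZFP57 recruits, had -0.13 ± 0.054 and -0.051 ± 0.11, none past the threshold. *Zfp57*, *Zfp445* and *Ctcf* were lower in KO at 1000 cells (-0.41 ± 0.076, -0.82 ± 0.14 and -0.52 ± 0.066). At 100 cells they had 0.015 ± 0.14, -0.55 ± 0.25 and -0.088 ± 0.1, which did not pass. *Dnmt1*, *Uhrf1*, *Trim28*, *Zfp57*, *Zfp445* and *Ctcf* were chosen after their values were seen. The 11 genes summed to 2224 and 2289 cpm for WT and 1588 and 1543 cpm in KO at 1000 cells, and to 2498 and 2502 against 1962 and 2003 cpm at 100 cells. DNA methylation itself was not measured in these libraries.

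Of 31 further imprinted genes on a second list, 28 were in the table and 22 were tested. At 1000 cells 12 were higher and 3 lower (20.9% and 20.6% of all genes), with a median log2 ratio of 0.44, and at 100 cells 6 were higher and 2 lower (17.6% and 16.6%), with a median of 0.21. *Sfmbt2*, a paternally expressed Polycomb gene of the placenta, had 54.5 and 41.4 cpm in the WT libraries against 16.98 and 18.6 cpm in KO at 1000 cells, and 38.1 and 36.7 against 14.8 and 12.6 cpm at 100 cells (log2 ratios -1.40 ± 0.12 and -1.47 ± 0.15, edgeR adjusted p = 7.54e-11 and 0.000202). *Cobl*, an actin nucleator next to *Grb10*, rose by 0.79 ± 0.076 and 0.79 ± 0.11 on the log2 scale (adjusted p = 1.22e-09 and 0.00095). *Dhcr7*, an enzyme of cholesterol synthesis, and *Commd1*, the host gene of *Zrsr1*, were higher at 1000 cells (0.48 ± 0.094 and 0.52 ± 0.086) and had 0.15 ± 0.15 and 0.088 ± 0.14 at 100 cells, which did not pass.

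The *Dlk1*-*Dio3* locus of chromosome 12 served as the comparison. Of its 5 tested genes, 0 were higher and 4 lower at 1000 cells (20.9% and 20.6% of all genes). At 100 cells 1 was higher and 2 lower (17.6% and 16.6%). The maternal non-coding RNAs of the locus are *Meg3*, *Rian* and *Mirg*. *Rian* had log2 ratios of -1.29 ± 0.091 and -1.62 ± 0.20 (edgeR adjusted p = 2.06e-12 and 0.00052). *Mirg* had -1.68 ± 0.27 and -1.01 ± 0.32 (adjusted p = 9.37e-06 and 0.0355). *Meg3* had -1.91 ± 0.10 at 1000 cells (adjusted p = 5.46e-15) and 0.67 ± 0.12 at 100 cells (adjusted p = 0.00364), a change of sign that none of the 36 genes showed with a call at both cell numbers.

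Markers of other cell types were compared between the same libraries. Over all genes, 20.9% were higher and 20.6% lower in KO at 1000 cells, and 17.6% and 16.6% at 100 cells. Of 9 tested markers of myelin and astrocytes, 2 were higher in KO at 1000 cells and 9 at 100 cells, with 0 lower, and of 10 neuron markers 3 were higher and 3 lower at 1000 cells and 7 were higher and 1 lower at 100 cells. The 10 myelin and astrocyte markers summed to between 58.9 and 77.6 cpm in the WT libraries, 150.3 and 129.6 cpm in KO at 1000 cells, and 385.7 and 377.9 cpm in KO at 100 cells. No more than 3 counts per library were found for 2 of them in either group of 1000 cells, for 4 in the WT group of 100 cells and for 0 in its KO group. The neuron markers summed to between 565.9 and 792 cpm over all libraries, a sum made mostly of *Stmn2* and *Tubb3*, which the WT libraries held as well.

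Among single markers, *Camk2a*, a kinase of excitatory neurons, had 0 and 0.0767 cpm in WT compared with 8.85 and 9.16 cpm in KO at 100 cells, and 0.998 and 1.24 cpm in WT and 0.309 and 0.542 cpm in KO at 1000 cells. *Mobp*, a myelin gene, and *Aldoc*, an enzyme of astrocytes, were higher in KO at 1000 cells too (log2 ratios 1.48 ± 0.15 and 1.09 ± 0.099). *Nefl*, a neurofilament gene, was lower in KO at 1000 cells (-0.87 ± 0.14, edgeR adjusted p = 6.11e-06) and had 0.51 ± 0.19 at 100 cells (adjusted p = 0.0634). The part of these markers in the values of *Nap1l5*, *Ndn*, *Gnas* and the other members at 100 cells was not tested. The lists for fibroblasts, primitive endoderm and trophoblast hold 8 markers each, of which 5, 6 and 4 could be tested. Of the 5 fibroblast markers, KO was higher for 1 and lower for 1 with 1000 cells, and higher for 1 with 100 cells. Of the 6 primitive endoderm markers, KO was higher for 1 in each comparison. Of the 4 trophoblast markers, KO was higher for 1 with 1000 cells and lower for 2 with 100 cells. The matching shares of all tested genes, in either direction, were 41.5% and 34.2%, and the lists were not tested against them.

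**Figure D5:**
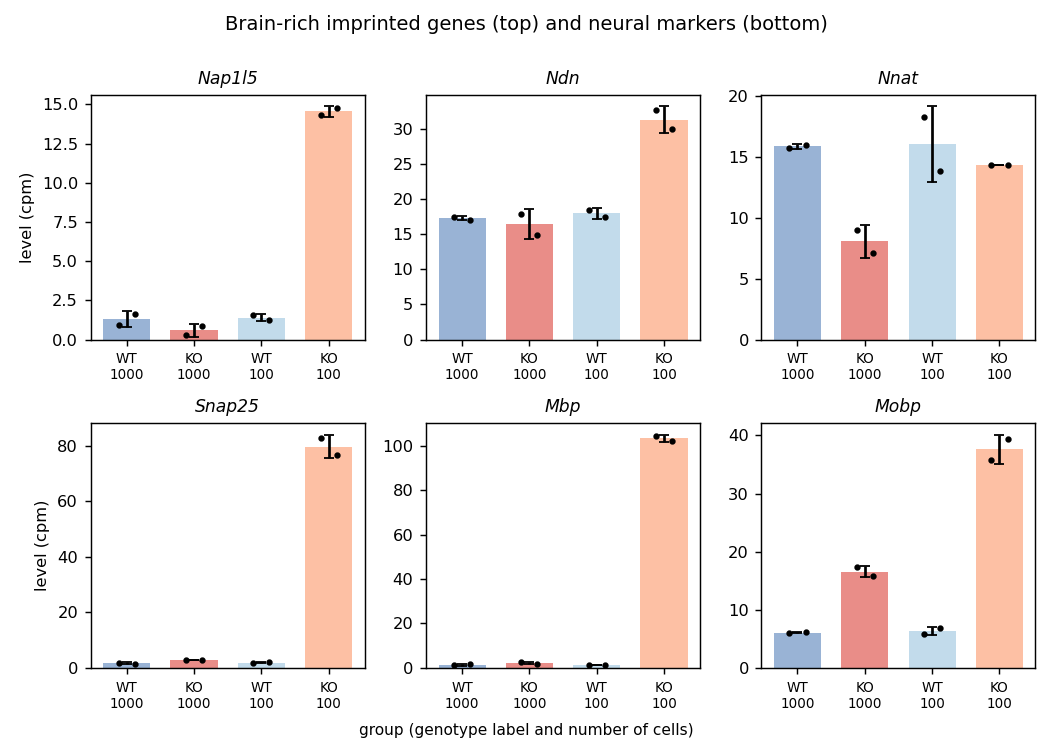
Level in cpm of the imprinted genes *Nap1l5*, *Ndn* and *Nnat* (top) and the neural markers *Snap25*, *Mbp* and *Mobp* (bottom), with bars for the mean of 2 libraries, points for single libraries and error bars for ± 1 SD. *Nap1l5*, *Ndn*, *Snap25*, *Mbp* and *Mobp* are each highest in the KO libraries of 100 cells, and *Nnat* is not. The neuron marker *Stmn2*, which is not shown, was lower in KO than in WT at 100 cells.

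The comparison of cell numbers within a genotype asked how far 100 cells gave the same levels as 1000 cells. Within WT, 1 of the 36 genes was called, *Ppp1r9a*, lower at 100 cells (log2 ratio -0.80 ± 0.18, edgeR adjusted p = 0.0463), against 0.827% of all tested genes (0.149% higher and 0.678% lower). That call was lost without either WT library of 1000 cells (-0.84 and -0.73). The WT libraries of 100 cells differed more from each other than replicates of the other groups did, with a chi-square per degree of freedom of 17.6 against 1.99 to 3.28. Leaving out replicate 1 or replicate 2 of them raised the number called, both among the 36 genes and over all tested genes. Of the 36, *Kcnq1ot1* had -0.72 without replicate 1 and *Cd81* had 0.67 without replicate 2.

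Within KO, 19 of the 36 were called, 10 higher and 9 lower at 100 cells, against 52.1% of all tested genes (27.3% higher and 24.8% lower). Higher were *Nap1l5*, *Gnas*, *Usp29*, *Trappc9*, *Ndn*, *Tssc4*, *Ascl2*, *Nnat*, *Mkrn3* and *Copg2*, led by *Nap1l5* with 4.54 ± 0.26 on the log2 scale (edgeR adjusted p = 1.74e-16). Lower were *Peg10*, *Slc22a18*, *Phactr2*, *Kcnq1ot1*, *Cd81*, *Ube3a*, *Plagl1*, *Peg3* and *Impact*, with *Peg10* at -0.86 ± 0.17 (adjusted p = 5.99e-05) and *Cd81* at -0.50 ± 0.051 (adjusted p = 5.58e-10). *Mest* and *Snrpn*, which were lower in KO at both cell numbers, had 0.11 ± 0.068 and -0.054 ± 0.055 between cell numbers within KO, and neither passed. The comparisons of KO with WT at 100 cells and of 100 with 1000 cells within KO share the KO libraries of 100 cells.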

How the data were processed

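The 8 libraries were grouped by the genotype and cell number in their labels. The authors sequenced paired ends on an Illumina instrument, removed ribosomal RNA reads with Bowtie2 2.1.0, mapped the rest to mm10 with TopHat 2.0.10 and counted fragments per GENCODE M4 gene with htseq-count 0.6.1 in union mode without strand, discarding fragments that matched several genes or positions. The deposited values are raw counts per gene under Ensembl identifiers, and 0 columns were left unused. Removal of PCR duplicates is not given in the sources used here.

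Identifiers were matched without version to GENCODE M21 on GRCm38 (42425 of 43309, 97.96%), which gave symbols, positions, exonic lengths and overlaps. The 16816 genes reaching 10 counts in 1 or more libraries were tested in R 4.3.3 by edgeR 4.0.16 (quasi-likelihood F test, TMM, two-sided, Benjamini-Hochberg, threshold 0.05), each comparison on its 4 libraries and the interaction on all 8. A permutation test of 2 against 2 libraries cannot pass this threshold. FPKM is cpm per kilobase of exonic length. Intervals and the floor of 3 counts cover counting error only. Replicates differed by more than sampling noise, so none were merged.

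Alternatives were other scalings, filters and tools (DESeq2 1.42.0, limma-voom 3.58.1, the edgeR exact test), thinning, a joint fit, a replicate block and leaving out each library, plus a crossed block chosen after seeing the data. All 40 genes are accounted for. Values per library are given for genes called at both cell numbers or in the interaction and for the highest gene of each cluster, and from other lists at most 4 called genes with the largest ratios at a mean of 10 cpm or more. *Blcap*, *Herc3*, *Camk2a*, *Mirg*, *Dnmt1*, *Uhrf1* and *Trim28* fall outside this rule, and 1 gene that it names is not reported here. The members and lists were chosen with earlier results of these data known.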

Additional observations from a re-analysis of the deposited data

Results flagged for a closer look

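For 8 imprinted genes the ratio of KO to WT libraries differed between 100 and 1000 cells by the interaction test of edgeR. The log2 difference of the ratios was -0.95 for *Cd81*, 0.71 for *Tssc4*, -1.33 for *Peg10*, 0.72 for *Ppp1r9a*, 0.86 for *Ndn*, 0.81 for *Nnat*, 4.39 for *Nap1l5* and 2.54 for *Gnas*. In *Nap1l5*, *Ndn* and *Tssc4* the KO libraries of 100 cells were the highest of the 8, as they were for *Mbp* and *Snap25*. In *Cd81* and *Nnat* the KO libraries of 1000 cells stood apart, and in *Peg10* the KO libraries of 100 cells were the lowest. In *Ppp1r9a* both WT libraries of 1000 cells were above the other 6. The counts behind *Gnas* were 4 to 29 per library. Cell number and the number of PCR cycles cannot be told apart in this design.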

How the results depend on the processing

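Of the 36 tested genes, 11 of 21 calls at 1000 cells and 6 of 15 at 100 cells held under every alternative, as did 11 of 19 within KO, 0 of 1 within WT and 2 of 8 for the interaction. No call of a member changed sign. *Cd81* at 100 cells, uncalled, passed in either direction, with 0.25 without WT replicate 1 and -0.20 without WT replicate 2. The cause of the changes in counts below was not tested, except that leaving out a library lowers the number of samples.

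Members called moved with DESeq2 to 12 of 36 at 1000 cells, 12 within KO and 5 for the interaction, and to 12 within KO with 1 fit of all libraries. Within WT, members called were 0 with DESeq2 size factors, library size alone, limma-voom, at least 10 counts in every library or thinning (at an unadjusted p under 0.05, 6 or 7), 1 with DESeq2 or the exact test, 3 without a filter beyond 1 count, 2 in 1 fit of all libraries and 3 with a crossed replicate block. Leaving out a library gave 17 to 19 members at 1000 cells, 6 to 25 at 100 cells, 0 to 8 within WT, 14 to 19 within KO and 2 to 14 for the interaction.

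Over all genes, calls within KO fell to 5641 with DESeq2. Within WT they were 79 with library size alone, 212 with DESeq2, 434 with the exact test, 463 without a filter beyond 1 count, 3 after thinning and 676 in 1 fit of all libraries. Leaving out a library gave 2066 to 9551 at 100 cells, 6 to 2631 within WT and 727 to 5633 for the interaction. With library size alone, 39.29% of calls at 1000 cells were higher in KO, against 50.35%.

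The replicate block gave 22 members at 1000 cells, 15 at 100 cells, 1 within WT (285 genes, with crossed numbers 512), 19 within KO and 7 for the interaction. The labels do not say that a number pairs libraries, and differences between replicates 1 and 2 correlated between groups at -0.12 to 0.17. The exact test and the 1 fit of all libraries gave no further value for the interaction.

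Depth limits *Magel2*, *Zim1*, *Igf2* and *Gnas*, each under 30 counts in every library.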
